A study of Homo sapiens with 6 samples.

Results

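Fibronectin is a large matrix glycoprotein that cells assemble into fibrils, and its receptors are integrins, each a pair of 1 alpha and 1 beta subunit. The genes described here are FN1, which encodes fibronectin, and 8 genes for subunits of fibronectin-binding integrins: ITGA4, ITGA5, ITGAV, ITGB1, ITGB3, ITGB5, ITGB6 and ITGB8. They were chosen by symbol from probe sets with exactly 1 gene symbol in the platform annotation, and all 9 were measured, each by 1 probe set, among 18417 genes in all. The probe sets were 8058765 for FN1, 8046695 for ITGA4, 7963786 for ITGA5, 8046861 for ITGAV, 7932966 for ITGB1, 8007931 for ITGB3, 8090162 for ITGB5, 8056184 for ITGB6 and 8131666 for ITGB8. The set was drawn up with the FN1 difference between the groups already known, so in effect FN1 was selected on its intensities in these 6 arrays. FN1 is therefore described without a test of its own and no p is given for it, and the integrin genes carry the adjusted p of the fit over all genes.

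The arrays were hybridised with RNA from MCF10A, a human mammary epithelial cell line that does not form tumours, in a version that the series names with the receptor tyrosine kinase ErbB2. All cultures shared ErbB2, a medium with horse serum, insulin, cholera toxin and hydrocortisone, and 7 days of 3-D growth in reconstituted basement membrane, and 3 arrays were labelled RB-proficient and 3 RB-deficient. The titles tag the groups miNS and miRB, tags which the labels do not spell out, and they say neither how RB was lowered, whether the lines are clones, nor whether the replicates came from separate cultures. P-values therefore measure the spread between these arrays, which may be technical, and the small number of arrays limits the precision. Cells and matrix were lysed together, so the RNA is that of whole wells. In such bulk RNA, fewer cells of a type and less RNA per cell cannot be told apart.

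The integrin alpha5beta1 is the classical receptor of the Arg-Gly-Asp site of fibronectin and drives its assembly into fibrils. The alphaV integrins, in which alphaV pairs with beta1, beta3, beta5, beta6 or beta8, bind the same kind of site in fibronectin, vitronectin or latent TGF-beta, and alpha4beta1 binds an alternatively spliced segment of fibronectin and the endothelial adhesion molecule VCAM1. In epithelium, alphaVbeta6 and alphaVbeta8 are known for activating latent TGF-beta, and the FN1 gene is known for a promoter with a cyclic AMP response element.

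The promoters of FN1, of its main receptor subunits ITGA5 and ITGB1 and of ITGB6, which of the 8 integrin genes described here had the largest difference with the main floor, are shown to place the genes. Each is the 250 bases before a transcription start in RefSeq (build GRCh38.p14), 5′ to 3′ on the gene's strand. They lie at chr2:215436069-215436318 (minus strand) for FN1, chr12:54419267-54419516 (minus) for ITGA5, chr10:32958231-32958480 (minus) for the first of 2 starts listed for ITGB1, and chr2:160200273-160200522 (minus) for ITGB6. Capitals mark matches to the motifs searched.
FN1: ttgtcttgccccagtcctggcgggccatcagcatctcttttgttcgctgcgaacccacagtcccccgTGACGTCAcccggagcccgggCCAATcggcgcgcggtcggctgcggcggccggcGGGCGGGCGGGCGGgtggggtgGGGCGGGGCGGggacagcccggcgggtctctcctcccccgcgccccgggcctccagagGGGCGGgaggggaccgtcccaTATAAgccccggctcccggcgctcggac
ITGA5: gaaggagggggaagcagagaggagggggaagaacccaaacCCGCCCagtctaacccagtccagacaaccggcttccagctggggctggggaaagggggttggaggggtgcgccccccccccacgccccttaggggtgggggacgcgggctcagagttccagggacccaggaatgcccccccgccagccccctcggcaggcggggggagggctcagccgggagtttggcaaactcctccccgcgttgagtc
ITGB1: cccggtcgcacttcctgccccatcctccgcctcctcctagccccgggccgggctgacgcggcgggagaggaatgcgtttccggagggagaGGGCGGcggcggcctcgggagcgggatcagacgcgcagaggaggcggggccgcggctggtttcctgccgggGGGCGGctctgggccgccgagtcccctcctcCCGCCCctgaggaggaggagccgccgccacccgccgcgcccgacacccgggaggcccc
ITGB6: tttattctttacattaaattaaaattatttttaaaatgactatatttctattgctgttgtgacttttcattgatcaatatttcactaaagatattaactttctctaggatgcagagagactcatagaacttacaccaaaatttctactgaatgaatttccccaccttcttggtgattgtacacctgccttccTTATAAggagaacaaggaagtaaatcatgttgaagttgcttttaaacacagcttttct

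All motifs were searched on both strands, and overlapping matches were kept. The cyclic AMP response element was searched as TGACGTCA and a form of the binding motif of E2F factors as TTTNGCGC. Other forms of the E2F motif were not searched. The letters for a GC box, the target of SP1, were GGGCGG, and those for the AP-1 factors were TGANTCA. Near the start, the box bound by the TATA-binding protein was searched as TATAA, and the motif of the factor NF-Y as CCAAT. The FN1 window held TGACGTCA from 183 to 176 bases before the start, which 1.65% of 35116 promoter windows of the same length hold. It also held CCAAT (32% of windows) from 162 to 158, 6 GC boxes (42.6% of windows), some of them overlapping, and TATAA (18.9% of windows) from 28 to 24 bases before the start. Among the 12 windows listed for 8 of the 9 genes (all but ITGB3), TGACGTCA occurred in that of FN1 only, the E2F letters (1.51% of windows) and the AP-1 letters (6.57%) in 0. GC content was 76.4% for FN1, 70.0% for ITGA5 and 78.4% for ITGB1 but 30.0% for ITGB6, against a median of 58.0% over all windows. These matches describe letters only.

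The array labels were checked on RB1, which encodes RB, the protein that restrains E2F factors. Its log2 intensities were 7.01, 5.77 and 7.65 under the RB-proficient label and 3.45, 5.09 and 6.04 under the RB-deficient label (difference −1.95, SE 0.76, adjusted p 0.302 in limma's test). RB1 thus overlapped between the labels, RB-deficient 3 being higher than RB-proficient 2, and directions given below rest on the labels alone. Across genes, that array correlated with the RB-proficient arrays at Pearson's r of 0.83 to 0.88, against 0.68 to 0.75 for the arrays labelled RB-deficient 1 and 2, and genes at the floor used for low values made up 4.71% of the genes in RB-deficient 1 against 0.326% to 1.62% elsewhere. The median difference over all genes was −0.21 on the log2 scale, −0.09 with quantile normalization and −0.08 with each array centred. ACTB and GAPDH, common reference genes, differed by −1.92 and −1.23. Of the mammary epithelial markers, 7 of 10 were measured and 0 were at the floor in any array, with the basal keratins KRT5 and KRT14, the luminal keratins KRT8 and KRT18, CDH1, EPCAM and LAMB3 among them.

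FN1 was far lower in every array labelled RB-deficient than in every RB-proficient array. Its intensity, scaled so that all arrays share the same median, was 43.1, 34.4 and 31.5 under the RB-proficient label and 0.676, 0.0811 and 1.15 under the RB-deficient label. The groups did not overlap: the lowest RB-proficient value was 27.3 times the highest value of the other group, and 23.5 times in the intensities as deposited. The 3 RB-proficient arrays lay close together, whereas those labelled RB-deficient spread widely on a log scale, at intensities at which no detection call was used here, so their order has no meaning.

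How much lower FN1 was depends on how such low values are treated. With the main setting, values under 1 were set to 1 before log2, which set the arrays labelled RB-deficient 1 and 2 to the floor and left RB-deficient 3 just above it, and the log2 means were 5.17 ± 0.23 (SD, n = 3) and 0.07 ± 0.12 (SD, n = 3). The difference, RB-deficient minus RB-proficient as for all differences here, was −5.10, which is 34.3-fold. With a floor of −4 on the log2 scale, under which no FN1 value is replaced, the difference was −6.50 and the SD of the arrays labelled RB-deficient was 2.03. With floors of 4 and 16 all 3 of these arrays were at the floor, their SD was 0, and the difference shrank to −3.17 and −1.17, sizes that the floor itself sets. With an offset added to every intensity before log2 instead of a floor, the difference was −4.55 for an offset of 1 and −1.65 for an offset of 16. Each treatment keeps the order of the values, and every floor lies below the lowest RB-proficient value of 31.5. The direction and the separation of the 2 groups therefore could not change across the 6 treatments, and nothing is read from that. The fold ran from 2.25 to 90.3, and the spread within the arrays labelled RB-deficient was largely the floor's.

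**Figure D1:**
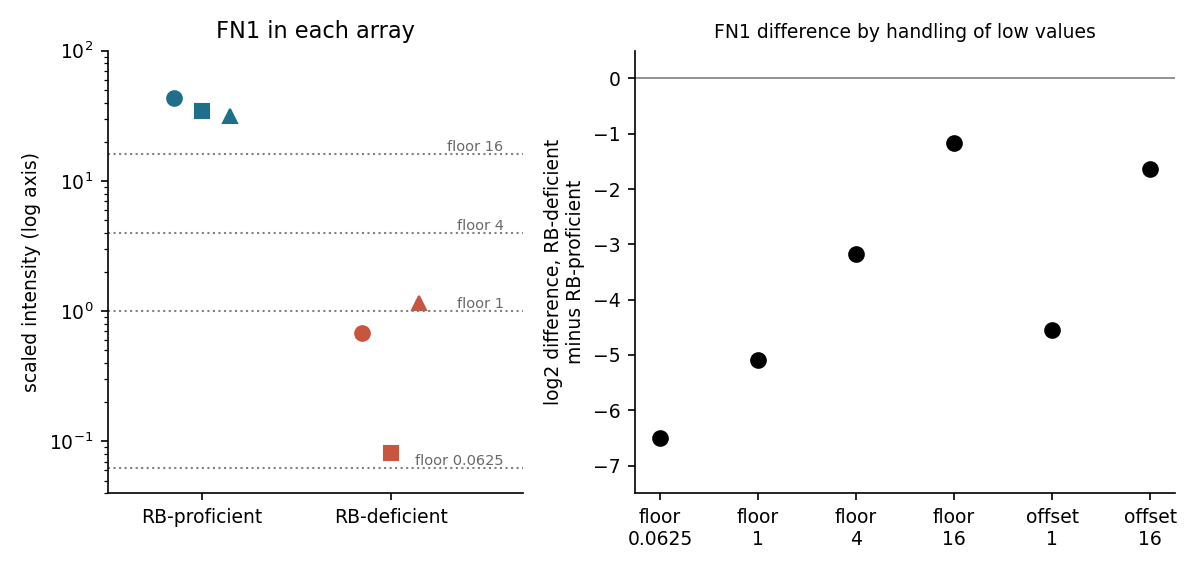
FN1 in each array and its difference under 6 treatments of low values. Left, the scaled intensity of FN1 on a log axis, 1 point per array (circle, square and triangle for replicates 1, 2 and 3), with dotted lines at the 4 floors; right, the mean log2 difference, RB-deficient minus RB-proficient, which runs from −6.50 with the lowest floor to −1.17 with a floor of 16 and is below 0 throughout.

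Over all 18417 genes, limma's test with Benjamini-Hochberg adjustment called 1 gene lower (0.00543% of those tested) and 0 higher (0%) at an adjusted p of 0.05. Since this contrast chose FN1, the count is given as background and nothing is read from it about FN1. By the unadjusted p under 0.05, 1996 genes (10.8%) were lower and 525 (2.85%) higher.

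At the main setting each of the 8 integrin genes had a smaller difference than FN1, which was selected for its difference. Not every treatment of low values kept this ranking. Raising the floor to 16 gave −1.17 for FN1 and −1.60 for ITGB6, whereas adding an offset of 16 gave −1.65 and −1.30. At the main setting 7 of the 8 integrin genes had a lower mean in the arrays labelled RB-deficient, where 58.6% of all genes did. In limma's test 0 of the 8 passed an adjusted p of 0.05 or an unadjusted p under 0.05. Their median difference was −0.77, or −0.56 once the all-gene median is subtracted, and the range was −1.60 to 0.49. For 1 of the 8, ITGB1, the groups did not overlap with the arrays labelled RB-deficient lower, which held for 15.3% of all genes, and for 0 with them higher, which held for 7.12%.

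**Figure D2:**
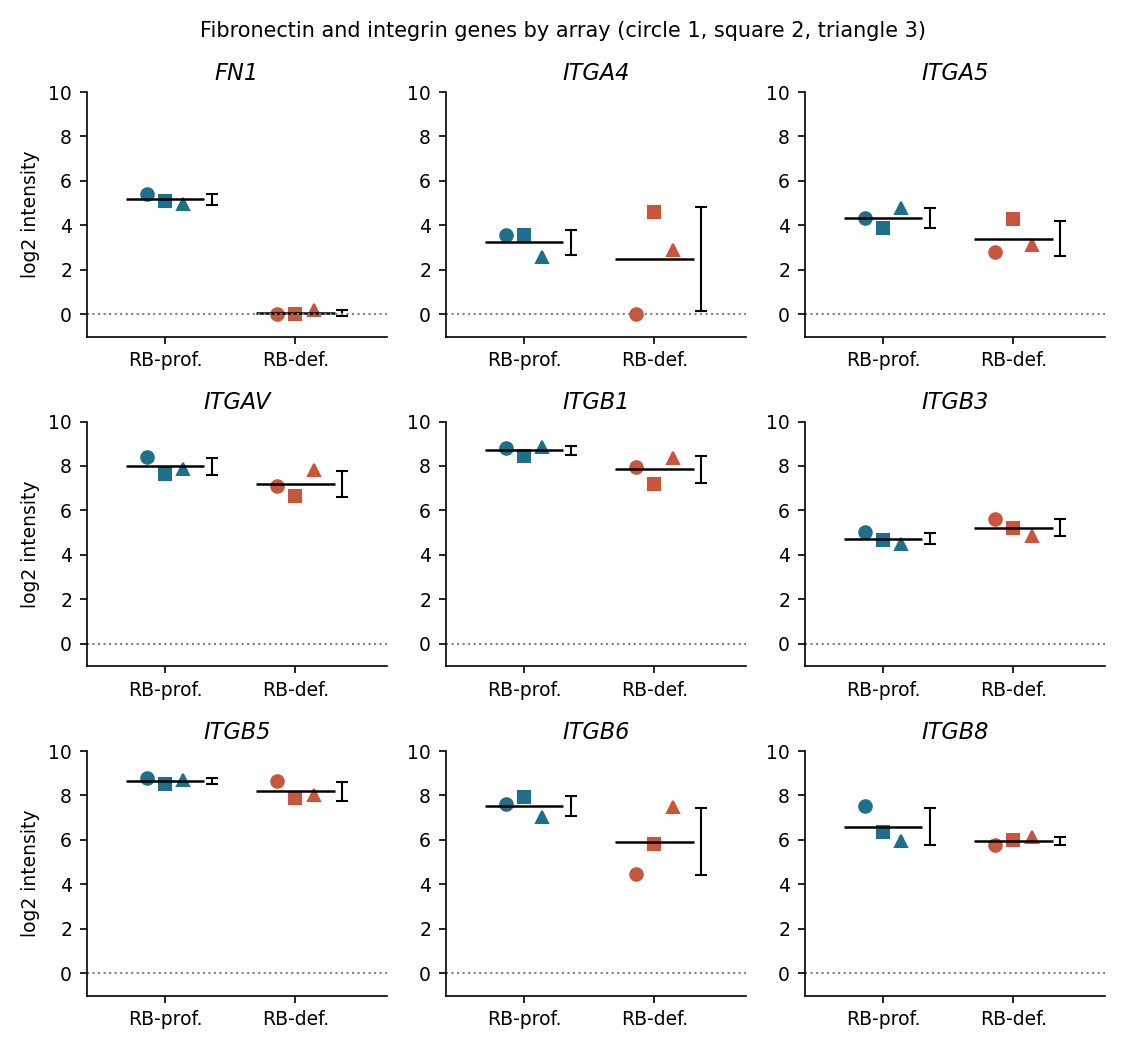
Log2 intensity of the 9 genes in each array, with the floor of 1 shown as a dotted line at 0. Circles, squares and triangles are replicates 1, 2 and 3 of each group, horizontal lines are means and error bars are ± SD (n = 3); levels of different genes come from different probe sets and are not comparable. FN1 separates the groups fully, ITGB6 and ITGA4 spread widely in the arrays labelled RB-deficient, and ITGB3 has the higher mean there.

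Among the alpha subunits, ITGA5, the partner of beta1 in the main fibronectin receptor, had scaled intensities of 20.1, 14.6 and 27.9 under the RB-proficient label and 6.95, 19.5 and 8.57 under the RB-deficient label. The array labelled RB-deficient 2 lay within the RB-proficient range and the other 2 below it. The mean difference was −0.94 (SE 0.57, 95% interval −2.21 to 0.33, adjusted p 0.488 in limma's test), or −1.38 without the array labelled RB-deficient 2. With a floor of 16, which lies inside this gene's range, the difference was −0.28.

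ITGAV, whose product pairs with all 5 beta subunits described here, had scaled intensities of 342, 202 and 233 under the RB-proficient label and 136, 102 and 226 under the RB-deficient label. RB-deficient arrays 1 and 2 lay below all RB-proficient values, and RB-deficient 3 lay between them. The difference was −0.79 (SE 0.52, 95% interval −1.96 to 0.39, adjusted p 0.529 in limma's test), and it was −0.16 with RB-deficient 3 alone against the RB-proficient arrays.

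ITGA4, the subunit for the alternatively spliced segment, had no settled direction. Its scaled intensities were 11.8, 11.9 and 6.08 under the RB-proficient label and 0.0520, 24.3 and 7.37 under the RB-deficient label, so that group held both the lowest and the highest of the 6 values. The difference of −0.75 (SE 1.00, 95% interval −3.004 to 1.504, adjusted p 0.757 in limma's test) rests on the array labelled RB-deficient 1, which was at the floor. Without that array the difference was 0.50, with the floor of −4 on the log2 scale it was −2.08, and with a floor of 16 it was 0.20.

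Among the beta subunits, ITGB1, the common partner of alpha4, alpha5 and alphaV, was the gene whose groups did not overlap. Its scaled intensities were 451, 349 and 456 under the RB-proficient label and 251, 147 and 333 under the RB-deficient label. The gap was narrow, since the lowest RB-proficient value was 1.05 times the highest of the other group. The difference was −0.85 (SE 0.51, 95% interval −1.998 to 0.30, adjusted p 0.487 in limma's test), or −0.32 with RB-deficient 3 alone.

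ITGB6, the epithelial partner of alphaV, had the largest difference of the 8 integrin genes with the main floor (with the floor of −4 on the log2 scale ITGA4 had). Its scaled intensities were 199, 243 and 129 under the RB-proficient label and 22.2, 56.8 and 178 under the RB-deficient label. The arrays labelled RB-deficient 1 and 2 lay below every RB-proficient value and RB-deficient 3 lay inside their range. The difference was −1.60 (SE 0.74, 95% interval −3.27 to 0.07, adjusted p 0.377 in limma's test). It was −2.38 without RB-deficient 3 (adjusted p 0.114 in limma's test) and −0.05 with RB-deficient 3 alone, so this value rests on the other 2 arrays.

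ITGB8, the other partner of alphaV known for TGF-beta activation, had scaled intensities of 182, 82.1 and 61.6 under the RB-proficient label and 55.1, 63.2 and 69.9 under the RB-deficient label. RB-proficient array 1 stood well above the other 5. The difference was −0.64 (SE 0.55, 95% interval −1.87 to 0.59, adjusted p 0.621 in limma's test), and −0.19 without RB-proficient array 1.

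ITGB5, whose product with alphaV binds vitronectin, had scaled intensities of 439, 362 and 417 under the RB-proficient label and 407, 233 and 259 under the RB-deficient label. Here RB-deficient 1, which was lowest for ITGB6, lay within the RB-proficient range, and the other 2 lay below it. The difference was −0.48 (SE 0.48, 95% interval −1.56 to 0.61, adjusted p 0.677 in limma's test), or −0.27 once the all-gene median is subtracted. In the intensities without scaling the groups of ITGB5 did not overlap, with the lowest RB-proficient value 1.13 times the highest of the others. The share of all genes that did not overlap without scaling was not computed. That highest value is from RB-deficient 1, the array with the lowest deposited median (21.4).

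ITGB3, the partner of alphaV in the classical vitronectin receptor, was the 1 gene of the 8 with a higher mean. Its scaled intensities were 32.2, 25.8 and 22.8 under the RB-proficient label and 49.1, 37.1 and 28.9 under the RB-deficient label. RB-deficient 1 and 2 lay above all RB-proficient values and RB-deficient 3 inside them. The difference was 0.49 (SE 0.48, 95% interval −0.59 to 1.58, adjusted p 0.670 in limma's test), and it ran from 0.12 to 0.68 over 19 alternative settings. The floors, the filter on dim genes, the probe set rule, the variance model and the block left it at 0.49. These settings could not turn its sign, and nothing is read from that. The intervals of all 8 integrin genes include 0, and each also includes a 2-fold change in 1 direction at least, so equality of the groups is not shown either.

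**Figure D3:**
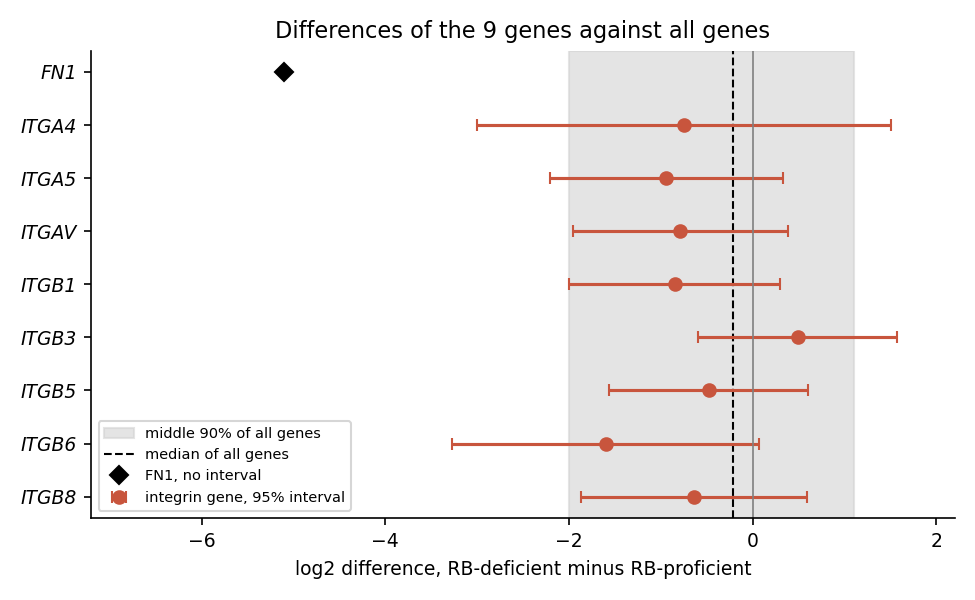
Log2 difference, RB-deficient minus RB-proficient, of each of the 9 genes. Circles with bars are integrin genes with 95% intervals from limma's fit; the FN1 diamond has no interval because FN1 was chosen for its difference. The grey band holds the middle 90% of all genes (−1.999 to 1.11) and the dashed line their median of −0.21: FN1 lies at −5.10, outside the band, and the 8 integrin means lie inside it.

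The 3 arrays labelled RB-deficient did not share 1 integrin profile. RB-deficient 1 was below the lowest RB-proficient value for 6 of the 8 integrin genes and above the highest for ITGB3. RB-deficient 2 was below for 4 (ITGAV, ITGB1, ITGB5 and ITGB6) and above for 2 (ITGA4 and ITGB3). RB-deficient 3 was below for 3 (ITGA5, ITGB1 and ITGB5) and above for 0. The share of all genes outside the RB-proficient range was not computed for each array. The counts are therefore not read as a trait of the integrin genes. The median deviation of the 8 genes from the RB-proficient mean was −0.85, −0.71 and −0.34 in these arrays, where all genes had −0.14, −0.37 and −0.14. FN1, with the floor of 1, deviated by −5.17, −5.17 and −4.96, also in the array labelled RB-deficient 3, whose integrin values and overall profile were nearest to the RB-proficient arrays.

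**Figure D4:**
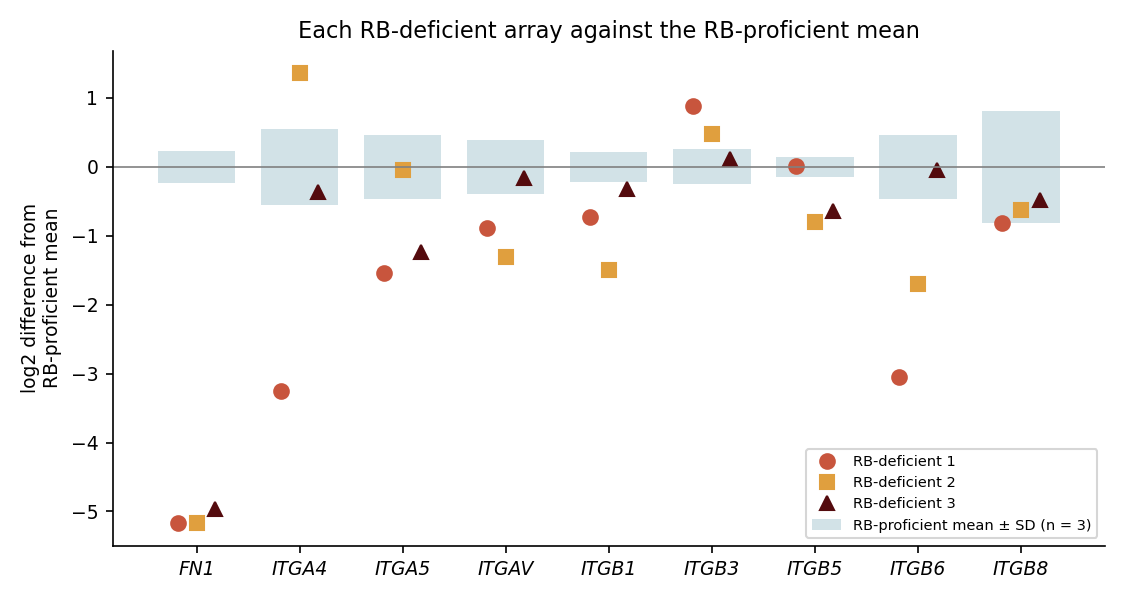
Deviation of each array labelled RB-deficient from the RB-proficient mean, in log2 units, for the 9 genes. Points are single arrays and the shaded bars are ± 1 SD of the 3 RB-proficient arrays. FN1 deviates by −5.17 to −4.96 in all 3 arrays, while for ITGB6 the arrays range from −3.05 to −0.05 and for ITGA4 from −3.24 to 1.36.

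The cultures were of the MCF10A line, so marker lists of other cell types are given as levels in these cultures and not as counts of such cells. A link between these levels and the FN1 and integrin values was not tested. Of 10 fibroblast markers, all were measured, and 4 had a lower mean in the arrays labelled RB-deficient, where 58.6% of all genes did. Their median difference was 0.44. Their summed scaled intensity was 215 to 255 in the RB-proficient arrays and 228 to 383 in the others, with 2 of them, COL3A1 and THY1, at the floor in RB-deficient 1 only. The summed level of the 7 measured epithelial markers was 3246 to 5865 and 2070 to 2824 in the same groups. Of the 7, 6 had a lower mean (all genes: 58.6%), and their median difference was −1.32, against −0.21 over all genes. The groups did not overlap for 3 of the 7 with the lower values in the arrays labelled RB-deficient (15.3% of all genes). For 1 they did not overlap with the higher values there (7.12%). KRT5, KRT8 and KRT18 differed by −2.40, −1.33 and −1.27 (adjusted p 0.291, 0.317 and 0.295 in limma's test). The 8 endothelial markers summed to 529 to 653 and 374 to 465, with 4 of 8 lower. The 7 of 8 measured leukocyte markers summed to 398 to 501 and 289 to 424, with 2 of 7 lower. Linear sums weigh bright genes most, and the brightest of these lists, CDH5 and CD68, differed by −0.86 and −1.16. The median differences of the endothelial and leukocyte lists were −0.18 and 0.63. Among the fibroblast, endothelial and leukocyte markers, the groups did not overlap for THY1, CDH5, PECAM1 and CD68, lower in the arrays labelled RB-deficient (15.3% of all genes). They did not overlap for COL6A3, TIE1 and PTPRC either, with the higher values there (7.12%). In these lists 0 markers were at the floor beside COL3A1 and THY1.

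The pathway around these genes gave 0 calls by limma at an adjusted p of 0.05 in any of 4 lists. Of 17 measured other integrin subunits, 7 had a lower mean, against 58.6% of all genes. The median difference was 0.22, the 3 arrays labelled RB-deficient giving −0.01, 0.73 and −0.11. The groups did not overlap for 2 of them with the lower values in the arrays labelled RB-deficient and for 5 with the higher values there, against 15.3% and 7.12% of all genes. ITGA8, whose alpha8beta1 is also a receptor of the Arg-Gly-Asp site, had log2 intensities of 4.01, 3.58 and 3.56 under the RB-proficient label and 6.27, 6.02 and 5.51 under the RB-deficient label. Its difference was 2.22 (SE 0.48, adjusted p 0.206 in limma's test). ITGB4, the laminin-binding subunit of hemidesmosomes, was at 6.05, 6.40 and 6.09 against 4.02, 3.16 and 4.49, a difference of −2.29 (SE 0.52, adjusted p 0.206 in limma's test). It passed with a floor of 16 (adjusted p 0.0489) and an offset of 16 (0.0474). In these settings 58 and 193 of all 18417 genes passed, against 1 with the main setting. ITGA3, a laminin-binding subunit, differed by −1.29 (SE 0.52, adjusted p 0.323).

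Inside the cell, integrin tails are linked to actin by talin, kindlins, vinculin, the kinase ILK with its partner parvin, and the focal adhesion kinase PTK2. Of 26 measured genes of this adhesion complex, 17 had a lower mean, against 58.6% of all genes. The median difference was −0.75 (−0.53 relative to all genes), with array medians of −0.94, −1.03 and −0.58. The groups did not overlap for 10 of the 26 with the lower values in the arrays labelled RB-deficient, against 15.3% of all genes. They did not overlap for 1 with the higher values, against 7.12%. By the unadjusted p under 0.05, 8 of the 26 were lower, against 10.8% of all genes, and 0 higher, against 2.85%. FERMT1, the epithelial kindlin that activates integrins, had log2 intensities of 6.36, 6.33 and 6.65 under the RB-proficient label and 3.15, 4.62 and 5.16 under the RB-deficient label, a difference of −2.14 (SE 0.60, adjusted p 0.225 in limma's test). PARVA, alpha-parvin, differed by −1.67 (SE 0.49, adjusted p 0.231 in limma's test). It passed with an offset of 16 only (adjusted p 0.0474), where 193 of all 18417 genes did. VASP, an actin regulator, differed by −2.26 (SE 0.66, adjusted p 0.231). ACTB, the actin gene used as a reference, differed by −1.92.

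Other ligands of the member integrins and other binding partners of fibronectin were measured as well. Of 15 ligands, among them vitronectin, osteopontin, VCAM1 and latent TGF-beta genes, 11 had a lower mean (58.6% of all genes), and the median was −0.43. The groups did not overlap for 0 of the 15 in either direction, against 15.3% of all genes lower and 7.12% higher. CCN1, a matricellular ligand, differed by −1.41 (SE 0.65, adjusted p 0.375 in limma's test), FBN1, fibrillin-1, by 0.89 (SE 0.53, adjusted p 0.484) and TNC, tenascin-C, by −0.98 (SE 0.61, adjusted p 0.499). CCN1 was at −0.91 without the array labelled RB-deficient 1, and TNC at −0.54 without RB-deficient 2. Of 9 measured fibronectin-binding partners 5 had a lower mean (58.6% of all genes), and the median was −0.09. The groups did not overlap for 2 of the 9, FBLN1 and SDC1, with the lower values in the arrays labelled RB-deficient (15.3% of all genes), and for 0 with the higher (7.12%). FBLN1, the matrix protein fibulin-1, which binds fibronectin, had log2 intensities of 5.39, 6.19 and 5.16 under the RB-proficient label and 2.10, 3.65 and 3.83 under the RB-deficient label, a difference of −2.39 (SE 0.61, adjusted p 0.210 in limma's test). SDC1, the epithelial syndecan, differed by −1.48 (SE 0.64, adjusted p 0.356) and CD44, a receptor of hyaluronan, by −0.65 (SE 0.51, adjusted p 0.588). SDC1 was at −0.83 without RB-deficient 1, and CD44 at −0.38 without RB-proficient array 1.

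**Figure D5:**
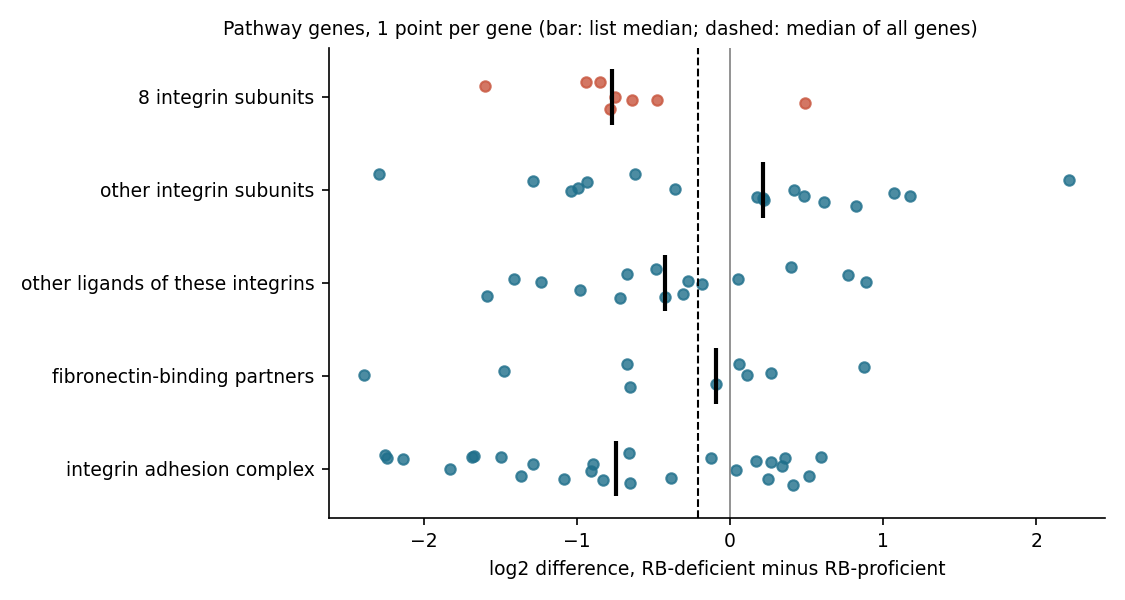
Log2 difference, RB-deficient minus RB-proficient, of every measured gene in 5 groups: the 8 integrin subunits, other integrin subunits, other ligands, fibronectin-binding partners and the intracellular adhesion complex. Each point is a gene, black bars are list medians (−0.77, 0.22, −0.43, −0.09 and −0.75 from top to bottom) and the dashed line is the median of all genes, −0.21; vertical scatter within a row has no meaning.

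Genes whose pattern over the 6 arrays was most like that of FN1 were found by the root mean square difference of mean-centred log2 values. The nearest were KRT31, a hair keratin (0.85), FAM32A (0.85), GSTA5, a glutathione S-transferase (0.85), ARF1, a small GTPase of the Golgi (0.87), and CAPNS2, a calpain small subunit (0.95). This likeness depends on the floor of 1, which KRT31 and GSTA5 were near under the RB-deficient label (log2 means 0.45 and 0.11). The differences of KRT31, FAM32A and GSTA5 shrank from −3.70, −3.59 and −4.08 to −0.19, −0.82 and −0.43 with a floor of 16. Those of ARF1 and CAPNS2 went from −3.95 and −4.43 to −3.31 and −2.26. The nearest of all genes differed from FN1 by 0.85, and the nearest of the 8 integrin genes, ITGB6, by 1.94. This distance grows with the size of a difference. FN1 was chosen for its difference and had the most negative of all genes (−5.10), so its large distances follow from that. For ITGB1 the nearest genes were SEPTIN2, a cytoskeletal GTPase (0.04), VPS4B, an ATPase of the ESCRT pathway (0.06), ALG9, a glycosyltransferase (0.07), DCTN4, a dynactin subunit (0.09), and SEC31A, of the COPII coat (0.09). Among the 9 genes, ITGB1 and ITGAV were the closest pair (0.20). These distances are descriptions over 6 arrays of 2 groups.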

How the data were processed

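The deposited values are linear intensities, 1 per probe set and array, made by the authors with Affymetrix Expression Console 1.1 per the submitters' processing notes. How they were summarised, background-corrected and normalized is not given in the sources used here. Since the design foresaw either log2 or linear values, its rule for linear ones was used. Arrays were brought to the same median of 26.8 (deposited medians 21.4 to 28.0), a floor of 1 was set, and logarithms to base 2 followed. The platform annotation gave 1 gene symbol for 19460 of 33297 probe sets, several for 1754 and no entry for 12083; per gene, the probe set with the highest mean over 6 arrays was kept. The comparison used limma 3.58.1 under R 4.3.3 (two-sided, by lmFit and eBayes with no covariates), adjusted by Benjamini-Hochberg over 18417 genes.

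The fit was tested on simulated data. The members and lists were chosen with earlier results of these data known. Besides the members and RB1, named genes were up to 3 per list by smallest unadjusted p and the 5 nearest to FN1 and ITGB1. Outside this rule stand ACTB and GAPDH, given as reference genes, the markers at the floor or with a turned sign, and a few genes that the closing section says were picked with their values known. The alternatives changed the scaling, floor, filter, probe set rule, variance model, block or arrays used. Promoter sequences are RefSeq's.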

Additional observations from a re-analysis of the deposited data

How the results depend on the processing

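Of the integrin genes whose value moved by over 1.5 times with 1 array left out, ITGAV (−0.52) and ITGB1 (−0.52) did so without RB-deficient 2, ITGB3 (0.30) and ITGB6 (−0.87) without RB-deficient 1, ITGB5 without either (−0.72 without RB-deficient 1, −0.32 without 2), and ITGB8 also without RB-proficient 3 (−0.97). The mean of 7 of 8 integrin genes was lower in 16 of 19 alternative settings. The count was 6 of 8 with a floor of 16, and also without the array labelled RB-deficient 1. It was 5 of 6 without the dimmest 25% of genes, which removed ITGA4 and ITGA5. The probe set rule, the variance model and the block could not change this count. The median difference of the integrin genes was −0.50 with an offset of 16 and −0.34 without the arrays labelled RB-deficient 1 and 2. With single arrays left out it ran from −0.87 to −0.58. In all 19 settings 0 integrin genes passed limma's adjusted p of 0.05, with a smallest adjusted p of 0.114. ITGA4 changed sign with a floor of 16 (0.20) and, with single arrays left out, ran from −1.80 to 0.50, the latter without the array labelled RB-deficient 1; the sign also turned for COL3A1 without the arrays labelled RB-deficient 1 and 2 (0.022) and PECAM1 with the mean of its probe sets (0.59).

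FN1 was lower in all 18 settings that kept it, and the filter on dim genes removed it. Floors, offsets, left-out arrays, the variance model and the block could not turn its sign, since its groups do not overlap. Its difference was −4.70 with quantile normalization, −6.50, −3.17 and −1.17 with floors of −4 on the log2 scale, 4 and 16, and −4.96 without the arrays labelled RB-deficient 1 and 2, and it ran from −5.20 to −4.97 with single arrays left out. No p is given for it, since these arrays chose it. The number of genes past the threshold was 0 with quantile normalization, the floors of −4 on the log2 scale and of 4, the filter on dim genes and without the arrays labelled RB-deficient 1 and 2, where 2264 to 2767 genes had an unadjusted p under 0.05 in limma's test. It was 58 with the floor of 16, 193 with the offset of 16, 61 with trend and robust, and 0 to 4 with single arrays left out, where 1252 to 3891 genes had an unadjusted p under 0.05.

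Arrays with the same number deviated from their group means without a shared pattern (r of −0.12, 0.07 and −0.11 across genes), so no pairing was used. With the replicate number as a block 1 gene passed and the FN1 difference was −5.10. Counts of lower genes in the other 4 lists, without RB-deficient 3 or without RB-deficient 1 and 2, were added after seeing the data and ran from 8 to 9 of 17, 10 to 11 of 15, 4 to 7 of 9 and 18 to 19 of 26. Signal over background is unknown, since detection calls were not used, which limits FN1 and ITGA4 most.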

Other observations

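The following genes were chosen after their values were seen. In the complex of ILK, PINCH and parvin that binds integrin beta tails, 5 genes were measured, and their means did not differ in 1 direction. ILK had log2 intensities of 7.10, 7.10 and 7.89 under the RB-proficient label and 6.42, 5.56 and 5.61 under the RB-deficient label, a difference of −1.50 (SE 0.52, adjusted p 0.275 in limma's test). Of the parvins, PARVA differed by −1.67 and PARVB by 0.04 (SE 0.68, adjusted p 0.983). Of the genes for PINCH proteins, LIMS1 differed by 0.52 (SE 0.47, adjusted p 0.644) and LIMS2 by 0.41 (SE 0.53, adjusted p 0.751). The groups of LIMS1 did not overlap, with the higher values in the arrays labelled RB-deficient, which held for 1 of the 26 adhesion complex genes and for 7.12% of all genes.

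The 5 of 17 other integrin subunits whose groups did not overlap with the higher values in the arrays labelled RB-deficient, which held for 7.12% of all genes, were ITGA8, ITGA7, ITGAD, ITGA2B and ITGB2. ITGA7, a laminin-binding subunit of muscle, differed by 1.17 (adjusted p 0.389 in limma's test). The leukocyte subunits ITGAD and ITGB2 differed by 1.07 (adjusted p 0.376) and 0.42 (adjusted p 0.708). ITGA2B, which encodes the partner of beta3 in the platelet receptor of fibrinogen and fibronectin, differed by 0.82 (SE 0.47, adjusted p 0.464).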
